A study of Mus musculus with 25 samples.

Results

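The 131 genes described here encode subunits of sodium, potassium and voltage-gated calcium channels, and they were taken by symbol alone (Scn, Kcn and Cacn names) from the 28446 genes of an RNA table and from the matching tables of open chromatin. The symbol rule used no measured value, but earlier results of these data were known when the genes were chosen. They comprise 14 sodium, 91 potassium and 26 calcium channel genes. In the chromatin data, 177 of 28329 regions of 10 kb centred on transcript starts carry these symbols, and 32 of the genes have more than 1 such region.

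Cells were sorted by green fluorescent protein (GFP) from the retina of CD1 mice. The labels describe the GFP+ sort as retinal progenitors and the GFP- sort as post-mitotic cells of the retina; the GFP reporter is not named. RNA was measured in both sorts at 3 ages, with 2 libraries per sort and age: E14 and E18 (embryonic days) and P2 (a postnatal day). ATAC-seq cuts accessible DNA with a transposase and counts the cuts. It covered only GFP+ cells, with a single library at E10 (the label reads embryonic day 10/11) and replicate pairs for 6 later stages: E12.5, E14 and E16.5, then E18, then P0 and P2. No label ties replicates to separate animals. The p-values therefore describe the spread between these samples alone, which may be technical. In such bulk samples, fewer cells of a type and less RNA per cell cannot be told apart.

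Voltage-gated sodium channels carry the rising phase of the action potential, potassium channels set the resting potential and repolarise the cell, and voltage-gated calcium channels couple depolarisation to transmitter release and gene expression. Each pore protein works with auxiliary subunits that change its surface level or gating. In the retina, ganglion cells fire sodium spikes, while photoreceptors and bipolar cells signal with graded potentials and release glutamate through Cav1.4, the calcium channel encoded by Cacna1f. Dividing neural progenitors have few voltage-gated sodium channels and rest on leak potassium conductances.

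The labels were checked against marker lists. Summed over 14 genes of the G2 and M phases, GFP+ libraries held 968 to 1719 FPKM (fragments per kilobase of transcript, scaled to library size) and GFP- libraries 34.1 to 583 FPKM. Summed over 16 pan-neuronal genes, GFP+ libraries held 130 to 370 FPKM and 5 of the 6 GFP- libraries 1052 to 8173 FPKM. The library labelled E14 GFP- replicate 2 went against its label, with 122 FPKM over the pan-neuronal list and 571 FPKM over the G2 and M list. It also held 4790 FPKM over 8 lens genes and 195 FPKM over 7 pigment epithelium genes, where the other 11 libraries held at most 125 and 7.56 FPKM. E14 GFP- replicate 1 held 1420 FPKM over 6 erythroid genes, E14 GFP- replicate 2 244 FPKM and the other 10 libraries at most 86.6 FPKM. Replicates at E18 and P2 lay closer together. Genes named Hist took 2.65% to 9.66% of FPKM in the E18 libraries and at most 0.132% in the others, and the noncoding RNA Malat1 read 1706 to 3935 FPKM in them and 79.9 to 135 FPKM in the others. ATAC counts over start regions ranged from 11176227 to 94662422 per library, and the count at the start exceeded the flank 6.4-fold at E10, between 18.5-fold and 28.6-fold from E12.5 to P0, and 22.7-fold and 12.2-fold in the P2 replicates.

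**Figure D1:**
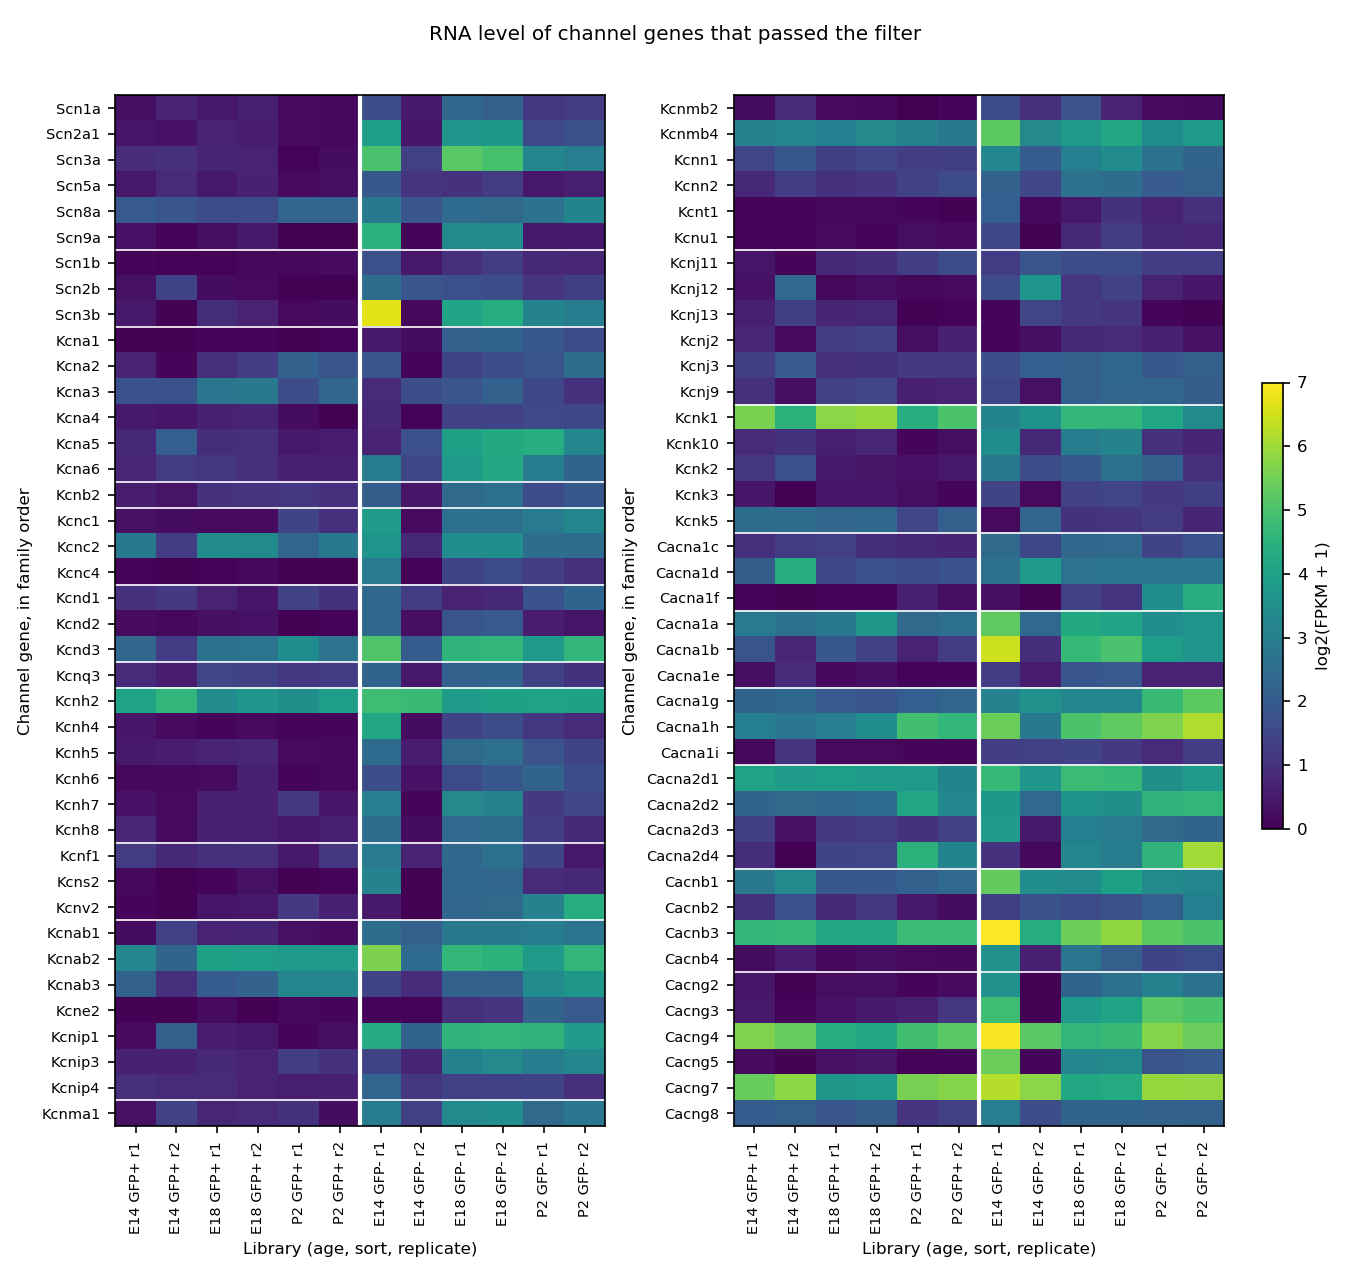
RNA level of 80 of the 84 channel genes that passed the filter, as log2(FPKM + 1), with genes in family order on the vertical axis and the 12 libraries on the horizontal axis. The GFP- libraries of E18 and P2 and E14 GFP- replicate 1 are brighter across most families, and E14 GFP- replicate 2 looks like the GFP+ libraries.

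Of the 131 genes, 84 reached 1 FPKM in at least 2 libraries and were tested. The other 47 were not. Of these, 40 stayed below 1 FPKM in every library and 7 reached it in 1 library. Scn4a, the sodium channel of skeletal muscle, and Kcnk16, a leak channel known from the pancreas, were listed at 0 FPKM in all 12 libraries. The inward rectifiers and the K2P (tandem pore) channels lost the most members by count, with 6 of 14 and 5 of 14 tested, and the electrically silent Kv channels lost the largest share, with 3 of 10 tested. All members of the Kv2, Kv3, Kv4, Cav2, Cav3, alpha2delta and calcium channel beta families were tested.

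A small group of channel genes stood high in progenitors. Of the 131 genes, 8 held 5 FPKM or more in all 6 GFP+ libraries: Kcnk1, Cacng7, Cacng4, Cacnb3, Kcnh2, Cacna1h, Cacna2d1 and Kcnmb4. The same 8 and Cacna1g and Cacnb1 held it in all 6 GFP- libraries. Kcnk1 encodes TWIK1, a leak potassium channel. It read 47.0 and 21.6 FPKM in E14 GFP+ libraries, 53.9 and 59.3 at E18 and 19.7 and 31.1 at P2, against 7.86 and 10.8, 23.9 and 24.0, and 16.5 and 9.24 in the GFP- libraries of the same ages. GFP+ stood above GFP- at every age without overlap. The log2 difference was 1.69 ± 0.39 at E14, 1.21 ± 0.39 at E18 and 0.95 ± 0.39 at P2 (± is SE for every log2 value), and it passed the test at none of them (limma, adjusted p = 0.3, 0.105 and 0.301).

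Kcnk5, which encodes the pH-sensitive leak channel TASK2, had the same order at a lower level. It read 4.57 and 4.57 FPKM in E14 GFP+ libraries, 4.01 and 4.16 at E18 and 1.75 and 3.37 at P2, against 0.131 and 3.83, 1.05 and 1.07, and 1.33 and 0.661 in GFP- libraries. Kcna3, the Kv1.3 channel, read 2.14 to 6.02 FPKM in GFP+ and 0.824 to 3.54 FPKM in GFP- libraries. At E18 the log2 differences were 1.30 ± 0.58 for Kcnk5 and 0.76 ± 0.35 for Kcna3, neither called (limma, adjusted p = 0.172 and 0.181). Kcnk1, Kcnk5, Kcna3 and Kcnj2, an inward rectifier, were the 4 tested members with a positive log2 difference at E18.

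Other channel genes that stood high in GFP+ cells reached as high or higher in GFP- cells. Cacng7 and Cacng4 belong to the gamma family, some of whose members traffic AMPA receptors. Cacng7 read 12.1 to 55.0 FPKM in GFP+ libraries (median 43.5) and 17.2 to 73.9 FPKM in GFP- libraries (median 55.7), and Cacng4 16.9 to 49.4 FPKM (median 32.2) and 23.4 to 122 FPKM (median 38.5). Cacnb3, a cytoplasmic beta subunit that brings calcium channels to the membrane, read 17.01 to 26.4 FPKM and 19.3 to 151 FPKM. Kcnh2, the ERG channel that repolarises heart and neurons, read 9.39 to 23.6 FPKM and 13.7 to 27.6 FPKM. Cacna2d1, an alpha2delta subunit, read 7.92 to 15.3 FPKM and 9.92 to 26.2 FPKM. Pooled over the ages, ranges of the sorts overlapped for each of these. Within E18 both GFP- libraries stood above both GFP+ libraries for each. Within P2 they did so for each but Cacna2d1, and within E14 for Kcnh2 alone. The sorts did not overlap for 79% of all tested genes at E18, 66.9% at P2 and 34.6% at E14.

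At E18 the channel genes stood lower in progenitors as a group. Of the 84 tested, 17 were called lower in GFP+ cells and 0 higher (limma, adjusted p below 0.05), where 2.49% of all 14276 tested genes were called lower, 1.13% higher and 3.61% either way. The median log2 difference over the 84 was -1.35 with 80 below 0, and over all tested genes it was 0.00. The sorts did not overlap for 97.6% of the members and for 79% of all tested genes. The calls took 2 of 9 tested sodium channel genes, 13 of 52 potassium channel genes and 2 of 23 calcium channel genes.

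Among sodium channels, Scn3a, the Nav1.3 pore of immature neurons, read 0.66 and 0.596 FPKM in E18 GFP+ libraries and 36.0 and 30.2 FPKM in GFP- libraries. It differed 52.7-fold between the means and by -4.38 ± 0.92 on the log2 scale, the lowest value of any member (limma, adjusted p = 0.0429). Scn1a, the Nav1.1 pore, read 0.372 and 0.52 FPKM against 4.01 and 3.44 FPKM (-1.71 ± 0.34, adjusted p = 0.0405). The other sodium channel genes stood in the same direction without passing the test. Scn2a1, the Nav1.2 pore, read 0.595 and 0.471 FPKM against 11.5 and 12.4 FPKM (-3.08 ± 0.88, adjusted p = 0.083), and Scn3b, a beta subunit, 0.901 and 0.613 FPKM against 15.9 and 19.3 FPKM (-3.40 ± 1.63, adjusted p = 0.194). Scn8a, the Nav1.6 pore, differed least among the better expressed pores, with 2.14 and 2.03 FPKM against 4.41 and 4.35 FPKM. In all 9 tested sodium channel genes both GFP- libraries of E18 stood above both GFP+ libraries.

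The shaker-type Kv1 channels, which open at low voltage, held 3 of the 17 calls, and the auxiliary subunits of Kv channels held 4. Kcna5 (Kv1.5) read 0.896 and 0.944 FPKM in GFP+ against 14.8 and 17.9 FPKM in GFP- libraries (-3.17 ± 0.52, limma adjusted p = 0.0239). Kcna6 (Kv1.6) read 1.14 and 0.921 FPKM against 13.1 and 17.5 FPKM (-2.9997 ± 0.47, adjusted p = 0.0207). Kcna1 (Kv1.1) read 0.0915 and 0.0748 FPKM against 3.35 and 3.75 FPKM (-2.07 ± 0.18, adjusted p = 0.00213). Kcnab1, a beta subunit of Kv1 channels, stood at -2.13 ± 0.33 (adjusted p = 0.0207).

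Kcnip1 and Kcnip3 encode calcium-binding KChIP proteins that assemble with Kv4 pores, and Kcnip3 (DREAM) also binds DNA. Kcnip1 read 0.456 and 0.374 FPKM in E18 GFP+ libraries and 22.7 and 23.3 FPKM in GFP- libraries (-4.08 ± 0.73, limma adjusted p = 0.0314). Kcnip3 read 0.715 and 0.588 FPKM against 7.47 and 8.80 FPKM (-2.46 ± 0.27, adjusted p = 0.00551). The Kv4 pores themselves were not called. Kcnd3 read 5.22 and 5.53 FPKM against 22.6 and 23.6 FPKM, and Kcnd2 0.213 and 0.277 FPKM against 2.55 and 2.95 FPKM. Kcne2, a small single-pass subunit, was called with the smallest difference, with 0.144 and 0 FPKM against 0.963 and 1.12 FPKM (-0.93 ± 0.17, adjusted p = 0.0337).

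Further potassium channels were called at E18. Kcnv2, a silent subunit that joins Kv2 pores and is known from photoreceptors, read 0.321 and 0.374 FPKM against 3.93 and 4.33 FPKM (-1.93 ± 0.40, limma adjusted p = 0.0416). Of the calcium-activated channels, the BK pore Kcnma1 stood at -2.58 ± 0.55 and the SK pores Kcnn1 and Kcnn2 at -1.81 ± 0.39 and -1.50 ± 0.28 (adjusted p = 0.0436, 0.0449 and 0.0345). Kcnj3, a G-protein-gated inward rectifier, stood at -1.24 ± 0.27 (adjusted p = 0.0491).

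Calcium channel pores were called in 2 cases at E18. Cacna1e, the R-type Cav2.3 pore, read 0.115 and 0.215 FPKM in GFP+ against 2.63 and 2.90 FPKM in GFP- libraries (-1.69 ± 0.26, limma adjusted p = 0.0208). Cacna1g, the T-type Cav3.1 pore, read 2.85 and 2.56 FPKM against 8.38 and 8.502 FPKM (-1.35 ± 0.24, adjusted p = 0.0294). The presynaptic N-type pore Cacna1b read 2.74 and 1.62 FPKM against 24.8 and 30.8 FPKM (-3.19 ± 1.41, adjusted p = 0.171), and the P/Q-type pore Cacna1a 6.18 and 12.1 FPKM against 18.1 and 16.1 FPKM. All 23 tested calcium channel genes had a negative log2 difference. No alpha2delta, beta or gamma subunit was called.

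The E18 calls rest on all 4 libraries compared. With any 1 of them left out, when the lone library is assumed to vary as the other groups do, Kcna1 alone was called, beside 0.161% to 0.238% of all tested genes. The log2 difference of Scn3a then lay between -4.51 and -4.26 and its adjusted p between 0.206 and 0.252. All groups share 1 estimate of the spread, into which the 2 unlike E14 GFP- libraries enter: without E14 GFP- replicate 2, 68 of the 84 members were called at E18 (66 lower, 2 higher), beside 42% of all tested genes. The 17 were among them.

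At P2 fewer channel genes passed. Of the 84, 12 were called lower in GFP+ cells and 0 higher, where 1.37% of all tested genes were called lower, 0.112% higher and 1.49% either way (limma). The median log2 difference was -0.98 with 78 below 0, and the sorts did not overlap for 90.5% of the members and for 66.9% of all tested genes. The calls took 9 of 52 tested potassium channel genes, 3 of 23 calcium channel genes and 0 of 9 sodium channel genes. The lowest value called was that of Kcnip1, with 0.0886 and 0.218 FPKM in GFP+ against 22.4 and 13.4 FPKM in GFP- libraries, 117-fold apart in the means (-3.996 ± 0.73, adjusted p = 0.0406).

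Cacna1f was called at P2 with 0.503 and 0.188 FPKM in GFP+ against 9.83 and 19.6 FPKM in GFP- libraries (-3.48 ± 0.31, limma adjusted p = 0.00155). Cacnb2, the beta subunit that partners Cav1.4 at photoreceptor synapses, read 0.357 and 0.171 FPKM against 3.27 and 7.13 FPKM (-2.22 ± 0.36, adjusted p = 0.0267). Cacna1g read 3.26 and 3.86 FPKM against 25.7 and 36.5 FPKM (-2.80 ± 0.24, adjusted p = 0.0013). In all 3, P2 GFP- replicate 2 stood above replicate 1, and both stood above the GFP+ replicates. Kcnv2 read 1.25 and 0.554 FPKM against 7.52 and 19.7 FPKM (-2.83 ± 0.40, adjusted p = 0.0164).

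Of the genes called at E18 and P2, 9 were called at both, which is 52.9% of the E18 calls and 75% of the P2 calls. They include Cacna1g, Kcna1, Kcna5, Kcnab1, Kcne2, Kcnip1, Kcnip3 and Kcnv2. The comparisons share no library, but they share the estimate of the spread. Kcna5 read 0.355 and 0.437 FPKM in P2 GFP+ against 19.7 and 8.60 FPKM in P2 GFP- libraries, and Kcne2 0.101 and 0.0738 FPKM against 3.73 and 2.90 FPKM. Kcna4 (Kv1.4) was called at P2 with 0.185 and 0.0288 FPKM against 1.94 and 1.86 FPKM (limma, -1.39 ± 0.24, adjusted p = 0.0302). Whether the sort difference itself changed from E18 to P2 was tested as an interaction (limma). At an unadjusted p below 0.05, 7 of the 84 members and 462 of all 14276 tested genes passed. After adjustment 0 of the 84 members passed, where 0.0981% of all tested genes passed, 0.028% higher and 0.07% lower. Without E14 GFP- replicate 2, 10 members passed, beside 1.11% of all tested genes.

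**Figure D2:**
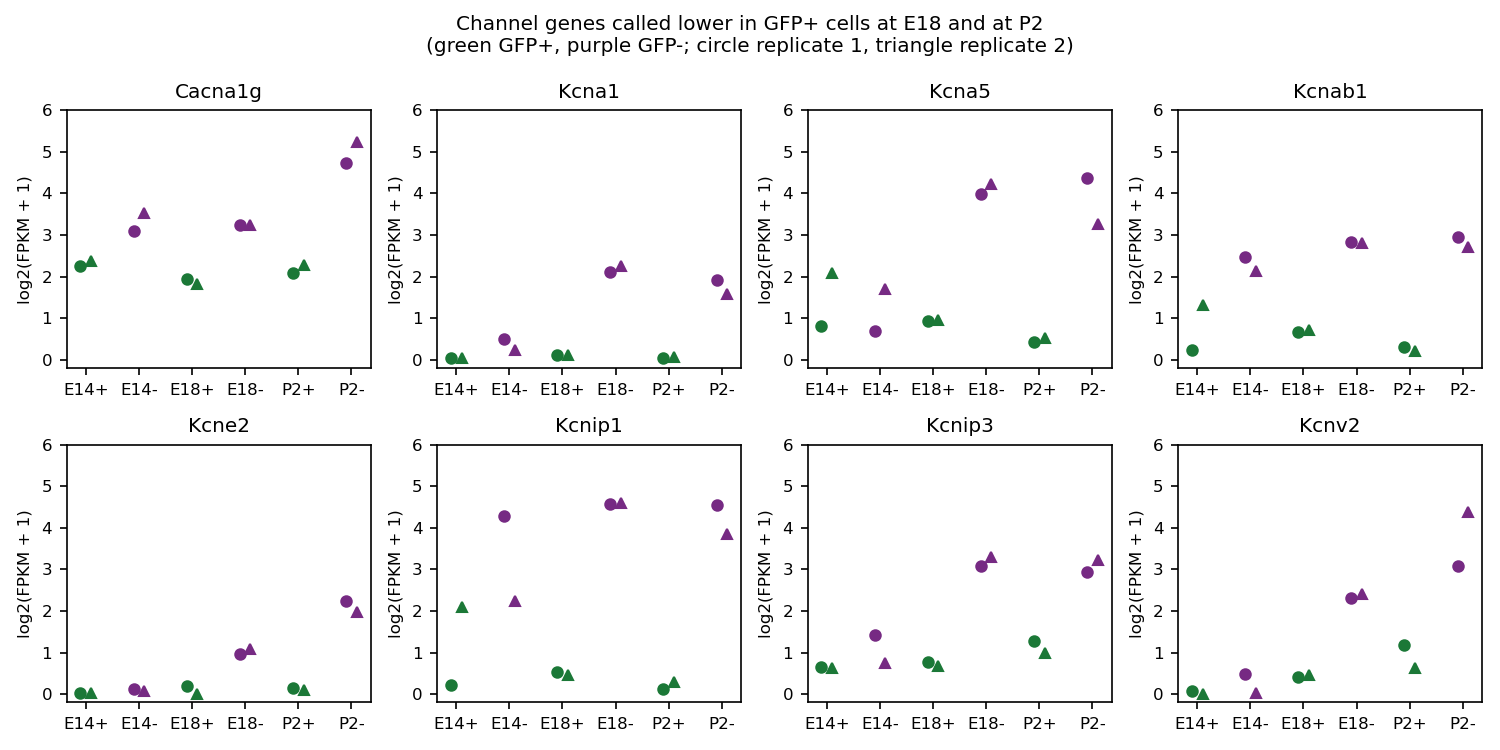
RNA level as log2(FPKM + 1) of 8 of the 9 channel genes called lower in GFP+ cells at E18 and at P2, by age and sort, with a point for each library (circle replicate 1, triangle replicate 2). At E18 and P2 the GFP- points lie above the GFP+ points in every panel, and at E14 the replicates of a sort often lie apart.

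The P2 count also moved with single libraries. It was 3 without either P2 GFP+ library, 8 without P2 GFP- replicate 1 and 5 without P2 GFP- replicate 2, beside 0.21% to 1.14% of all tested genes. Cacna1f, Cacna1g and Kcne2 were called in all 4 of these fits. Without E14 GFP- replicate 2 the P2 count was 50 (49 lower, 1 higher), beside 23.4% of all tested genes. Marker RNA of photoreceptors and of neurons differed between the sorts at the same time. A list of 12 rod and cone genes summed to 284 and 154 FPKM in P2 GFP+ against 1014 and 2220 FPKM in P2 GFP- libraries. The 16 pan-neuronal genes summed to 260 and 206 FPKM against 1052 and 1197 FPKM in the same libraries. The part of these lists in the calls was not tested.

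At E14, 0 of the 84 members were called (limma), where 0% of all tested genes were called in either direction. At an unadjusted p below 0.05, 17 of the 84 members and 2246 of all 14276 tested genes passed. The median log2 difference was -0.86 with 76 below 0. The 2 E14 GFP- libraries held unlike levels: replicate 1 stood above replicate 2 in 70 of the 84 members and at least 5 times above it in 42, and it held the highest value of all 12 libraries for 38 members. Scn3b read 104 FPKM in E14 GFP- replicate 1, 0.106 FPKM in replicate 2 and 0.405 and 0.0294 FPKM in the GFP+ libraries. Cacna1b read 87.7 FPKM, 0.887 FPKM, and 2.54 and 0.696 FPKM in the same order. For both, replicate 1 alone stood high and replicate 2 lay within or near the GFP+ values.

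Scn9a, the Nav1.7 pore, had its highest value in E14 GFP- replicate 1, at 21.3 FPKM, and so had Scn2a1 at 14.2 FPKM, Cacng5 at 42.4 FPKM and Cacnb3 at 151 FPKM. Scn3a read 30.8 FPKM there, below its 36.0 FPKM in E18 GFP- replicate 1. A list of 10 ganglion cell genes summed to 4770 FPKM in that library, to 66.7 FPKM in E14 GFP- replicate 2, to 777 and 913 FPKM in the E18 GFP- libraries and to at most 119 FPKM in the others. Its part in the channel levels was not tested. Without E14 GFP- replicate 2, 64 members were called at E14 (61 lower and 3 higher in GFP+ cells), beside 48.1% of all tested genes, and without replicate 1 in its place 1 member was called, beside 1.002% of all tested genes. Kcnj12, an inward rectifier, went the other way, with 11.7 FPKM in E14 GFP- replicate 2, 4.24 FPKM in E14 GFP+ replicate 2 and at most 2.07 FPKM elsewhere. These 2 libraries also held the 2 highest sums of the lens list.

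Within post-mitotic cells, 5 channel genes rose and 1 fell from E18 to P2, where 5.9% of all tested genes rose, 5.21% fell and 11.1% were called either way (limma). The members' share, 6 of 84, was not above that background. The median log2 difference was -0.38 with 58 of 84 below 0, against -0.01 over all tested genes. Calcium channel genes held 3 of the 5 that rose and the 1 that fell. Cacna1f went from 1.57 and 1.06 FPKM to 9.83 and 19.6 FPKM (2.70 ± 0.31, adjusted p = 0.00122), 11.2-fold between the means. Cacna1g went from 8.38 and 8.502 FPKM to 25.7 and 36.5 FPKM (1.75 ± 0.24, adjusted p = 0.00276). Cacng7 went from 17.2 and 18.6 FPKM to 58.9 and 57.8 FPKM (1.65 ± 0.19, adjusted p = 0.00143). Cacng7 stood low in the E18 libraries of both sorts, at 12.1 to 18.6 FPKM, and at 40.7 to 73.9 FPKM in all E14 and P2 libraries. The E18 libraries are those with the high histone and Malat1 values. For every gene compared between E18 and P2, age cannot be told apart from this difference between libraries. With FPKM rescaled without histone, mitochondrial and abundant noncoding genes, Cacng7 stood at 1.66 ± 0.16 and was called (limma). This rescaling multiplies all genes of a library by the same factor, so it cannot address shifts of single genes. The part of other differences of the E18 libraries was not tested.

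Kcne2 rose from 0.963 and 1.12 FPKM to 3.73 and 2.90 FPKM (limma, 1.07 ± 0.17, adjusted p = 0.00579). Cacna1e fell from 2.63 and 2.90 FPKM to 0.593 and 0.608 FPKM (-1.23 ± 0.26, adjusted p = 0.0214). In both genes the ages lay apart without overlap, as in 70.7% of all tested genes. Kcnv2 and Cacna2d4, which encodes the alpha2delta subunit of photoreceptor terminals, missed the threshold at 1.38 ± 0.40 and 2.20 ± 0.60 (adjusted p = 0.0625 and 0.0519). Cacna2d4 read 8.30 and 6.85 FPKM at E18 and 22.6 and 64.2 FPKM at P2.

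Among sodium channel genes, 8 of the 9 tested stood lower at P2, none past the test. Scn9a read 8.95 and 9.38 FPKM in E18 GFP- libraries and 0.359 and 0.394 FPKM at P2, 24.3-fold lower between the means (-2.88 ± 1.08, limma adjusted p = 0.133). Scn3a read 36.0 and 30.2 FPKM and then 8.52 and 6.94 FPKM. Scn2a1 read 11.5 and 12.4 FPKM and then 1.92 and 2.34 FPKM (-2.05 ± 0.88, adjusted p = 0.182). Scn8a was the tested sodium channel gene with a positive value, from 4.41 and 4.35 FPKM to 5.11 and 7.93 FPKM. In each of Scn9a, Scn3a and Scn2a1 the ages did not overlap, as for 79.8% of the tested members and 70.7% of all tested genes. The potassium leak channel Kcnk10 (TREK2) read 6.71 and 7.74 FPKM and then 0.926 and 0.660 FPKM (-2.20 ± 0.67, adjusted p = 0.0755).

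**Figure D3:**
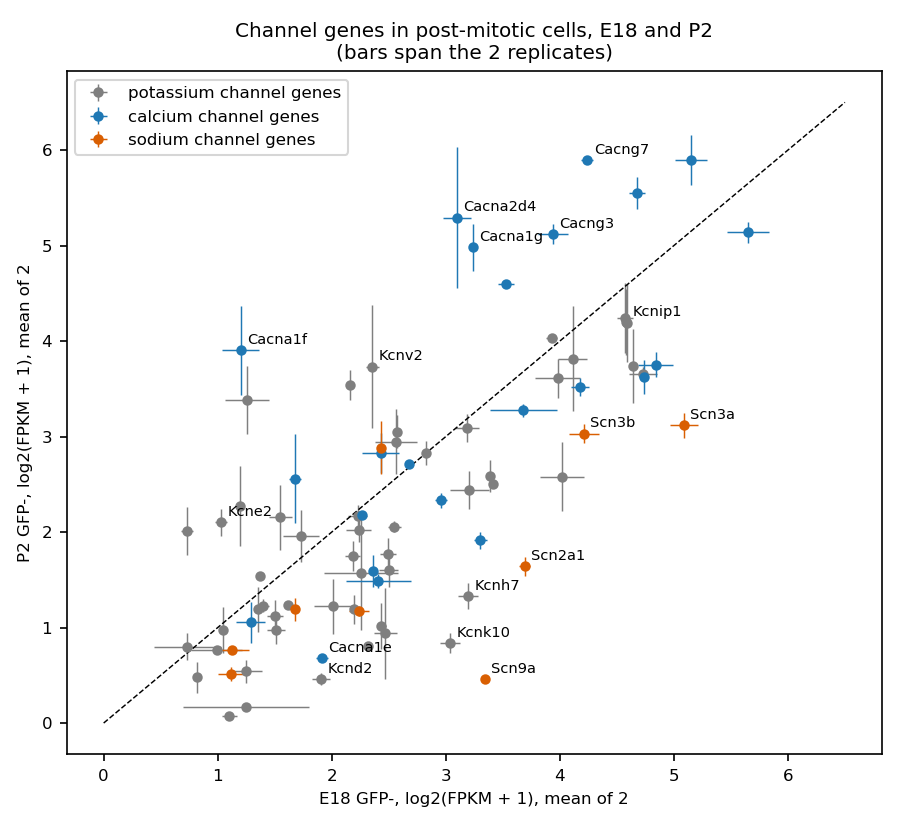
Channel genes in GFP- cells, with log2(FPKM + 1) at E18 on the horizontal and at P2 on the vertical axis, each point the mean of 2 libraries and bars their range. Cacna1f, Cacna1g, Cacng7 and Kcne2 lie above the dashed line of equal level, and Cacna1e and the uncalled Scn9a, Scn2a1 and Scn3a lie below it.

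Marker lists of retinal neurons moved between the same libraries. The 10 ganglion cell genes summed to 777 and 913 FPKM in E18 GFP- and 73.4 and 79.2 FPKM in P2 GFP- libraries, with 2 of 10 called lower and a median log2 difference of -3.66. The 12 rod and cone genes summed to 335 and 354 FPKM and then 1014 and 2220 FPKM, with 7 of 11 tested called higher and a median of 2.82. The 8 amacrine genes summed to 317 and 353 FPKM and then 545 and 359 FPKM. The part of these shifts in the channel values was not tested. The count of members called was 45 when the 2 groups were fitted alone and 41 without E14 GFP- replicate 2, beside 31.2% and 32.0% of all tested genes. In that last fit 13 rose and 28 fell. It was 3 without E18 GFP- replicate 1, beside 3.43%, and Cacna1f, Cacna1g and Cacng7 were called whichever library was left out.

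In progenitors, 1 channel gene changed from E14 to P2. Cacna2d4 rose from 0.877 and 0.017 FPKM to 21.7 and 7.98 FPKM (limma, 3.37 ± 0.60, adjusted p = 0.043), where 0.932% of all tested genes rose, 0.217% fell and 1.15% were called either way. The members' share, 1 of 84, was close to that background. In the E18 GFP+ libraries between these ages it stood at 1.64 and 1.76 FPKM. Cacna1h, the T-type Cav3.2 pore, read 7.11 and 5.67 FPKM at E14 and 28.4 and 23.9 FPKM at P2 (limma, 1.88 ± 0.68, adjusted p = 0.254). P2 GFP+ replicate 1 stood above replicate 2 in Cacna2d4 and Cacna1h. The rod and cone list summed to 33.2 and 6.83 FPKM in E14 GFP+ and 284 and 154 FPKM in P2 GFP+ libraries, also higher in P2 replicate 1, and its part was not tested. The call on Cacna2d4 was lost without any 1 of E14 GFP+ replicate 2 and both P2 GFP+ libraries (adjusted p up to 0.386), and 13 of 84 members were called without E14 GFP- replicate 2, beside 12.7% of all tested genes.

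A list of 50 other channels, pumps and channel partners was chosen with the members, and 49 of them were tested. The share called between the sorts was 10.2% at E18 and 6.12% at P2 (limma). Among the tested channel genes it was 20.2% and 14.3%, and among all tested genes 3.61% and 1.49%. In the rod and cone list it was 54.5% and 63.6%, and in the amacrine list 50% and 62.5%, all lower in GFP+ cells. In the pan-neuronal and ganglion cell lists it was 0% at both ages. Their median log2 differences were -3.06 and -2.78 (pan-neuronal) and -4.11 and -1.12 (ganglion cell). At E18, 5 partner genes were lower in GFP+ cells and 0 higher, where 2.49% of all tested genes were lower. At P2, 3 partner genes were lower and 0 higher, where 1.37% of all tested genes were lower. Those called at E18 include the sodium pump subunit Atp1b1, the chloride exporter Slc12a5 (KCC2), the sodium-calcium exchanger Slc8a1 and the ryanodine receptor Ryr3. At P2 they were Slc12a5, the calcium-activated chloride channel Ano2 and Stac2, an adaptor of Cav1 channels. Stac2 averaged 1.48 FPKM in GFP+ and 17.9 FPKM in GFP- cells at P2 (limma, -2.94 ± 0.23, adjusted p = 0.000994).

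Between E18 and P2 in GFP- cells, 4 of the 49 partner genes rose and 2 fell, a share close to the 11.1% of all tested genes called. Atp1b2, a sodium pump beta subunit, averaged 14.4 FPKM at E18 and 433 FPKM at P2 (limma, 4.73 ± 0.61, adjusted p = 0.00238). It stood low in the E18 libraries of both sorts, with 4.72 and 5.26 FPKM in GFP+ cells, where E14 libraries read 15.7 to 60.3 FPKM. These E18 libraries are those with the high histone and Malat1 values, whose part was not tested for this gene. Stac2 and Ano2 rose with it, and Ank2, the ankyrin that anchors channels in axons, and Slc8a1 fell. Rest, the repressor of neuronal genes that is known to act on many channel promoters, read 11.9 to 35.7 FPKM in GFP+ libraries. In GFP- libraries it read 12.7 and 14.5 FPKM at E18, 8.22 and 7.15 FPKM at P2, and 3.31 and 36.3 FPKM at E14, where the higher value is that of E14 GFP- replicate 2.

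Open chromatin at these genes was followed in GFP+ cells over 7 stages. From E12.5 to P0, 116 of 177 start regions changed, 89 lower and 27 higher (edgeR quasi-likelihood test, adjusted p below 0.05), where 61.9% of all 27902 tested regions changed, 32% lower and 29.9% higher. The lower regions belong to 70 genes and the higher ones to 21, and the median log2 difference over the 177 was -0.47 against 0.01 over all regions. Counts over exons gave 65 of 131 genes changed, 52 lower and 13 higher, where 42% of all genes changed, 19% lower and 23% higher. By family, lower regions made up 14 of 17 at sodium channel genes, 63 of 123 at potassium and 12 of 37 at calcium channel genes, with medians of -1.13, -0.55 and -0.12. Differences between the families were not tested. The start over flank ratio was 19.9 and 18.5 at E12.5 and 27.8 and 28.6 at P0, and its part in these counts was not tested.

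In a slope over all stages (stage rank as a number, log2 per stage), 34 regions of 27 genes fell and 7 regions of 6 genes rose, 41 in all, where 10.1% of all regions were called, 4.89% falling and 5.24% rising. Over exons 17 genes were called, 13 falling and 4 rising, where 6.28% of all genes were called, 2.93% falling and 3.34% rising. The median slope over the regions was -0.09 against -0.01 for all regions. P2 replicate 2, whose start over flank ratio of 12.2 was the lowest after E10, weighed on this fit: without it 118 regions (99 falling, 19 rising) and 76 genes over exons were called, beside 61.1% of all regions. Without either E12.5 library 20 regions were called, without P0 replicate 1 24, without P0 replicate 2 26 and without P2 replicate 1 24, beside 4.84% to 5.93% of all regions.

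Of the called regions, that of the sodium channel gene Scn3a had the steepest falling slope (-0.36 ± 0.06, edgeR adjusted p = 0.000687). Region levels are given in CPM, counts scaled to the library total after adjustment for library composition (TMM). Its region (mm9, chr2:65400549-65410548, minus strand) held 22.5 CPM at E10, 32.3 and 35.01 at E12.5, 27.2 and 26.1 at E14, 10.7 and 12.3 at E16.5, 9.35 and 8.08 at E18, 7.52 and 7.41 at P0 and 7.10 and 14.0 at P2. All libraries up to E14 lay above all later ones. The window with the largest difference lay inside the gene. This 200 bp window,  3.3 kb downstream of the region centre (chr2:65402149-65402348) held 8.01 and 8.24 CPM at E12.5 and 7.20 and 7.26 at E14, then 0.865 and 0.983 at E16.5 and 0.221 and 0.358 at P0. The window just upstream of the centre held 3.02 and 3.02 CPM at E12.5 and 1.28 and 1.52 at P0. Window CPM is scaled to the plain library total over start regions, without the TMM adjustment. Windows were picked for their height at E12.5 or P0 or for the difference between these stages, so they are a description with no test.

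Scn3a lies in a row of sodium channel genes on chromosome 2, and its neighbours fell too. From E12.5 to P0 a region of Scn2a (chr2:65453826-65463825, the symbol used here for Scn2a1) stood at -1.13 ± 0.21, that of Scn1a (chr2:66273894-66283893) at -1.81 ± 0.17 and that of Scn9a (chr2:66468019-66478018) at -1.98 ± 0.18, beside -2.17 ± 0.20 for Scn3a (edgeR, adjusted p = 7.29e-06, 3.67e-15, 2.77e-15 and 2.96e-15). These genes share a locus and are not independent cases. At Scn9a the tallest window, 0.1 kb downstream of the centre, held 9.41 and 10.4 CPM at E12.5, 4.93 and 5.01 at E14 and 1.55 and 1.25 at P0. Scn8a, on chromosome 15, went up at 1 start and down at the other (0.39 ± 0.13 and -0.99 ± 0.43, adjusted p = 0.00719 and 0.0412).

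**Figure D4:**
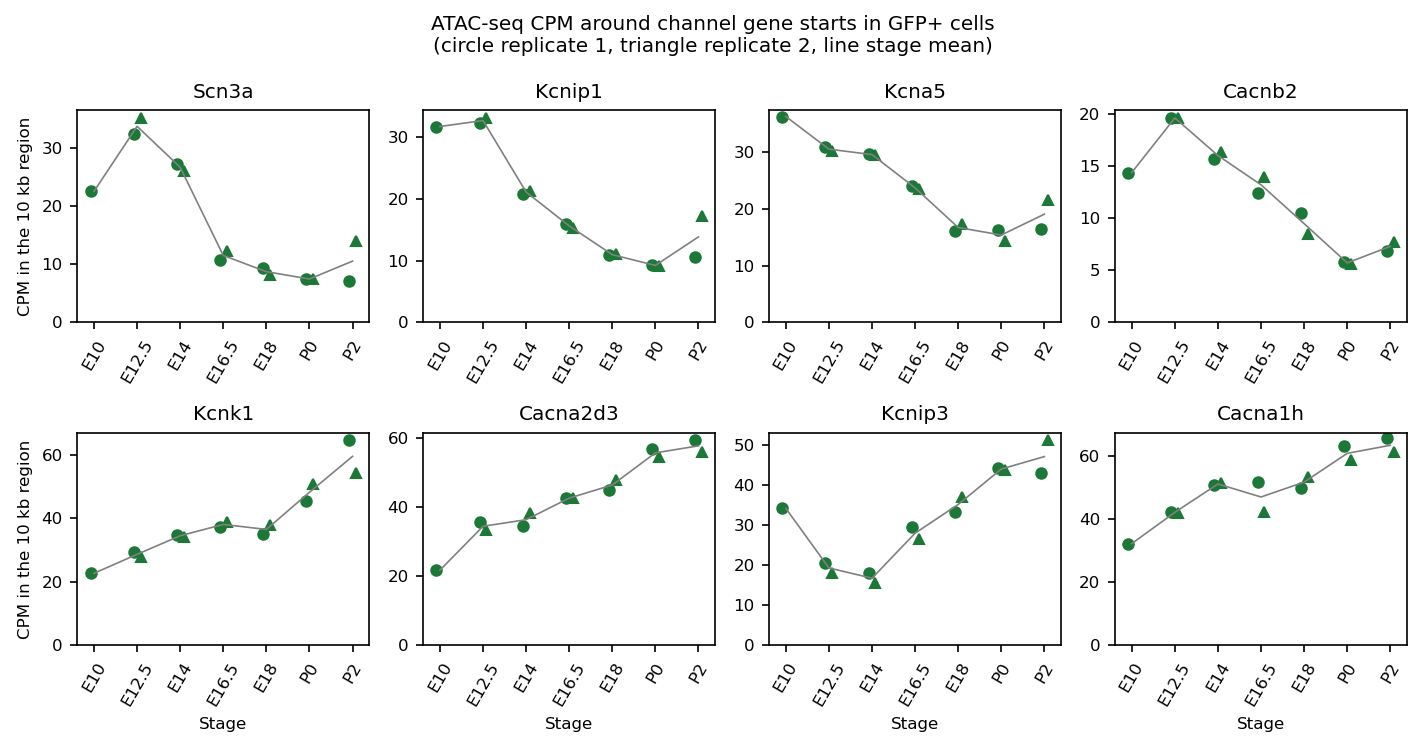
ATAC-seq CPM in the 10 kb start regions of 8 channel genes in GFP+ cells by stage, with a point for each library and a line through the stage means. Scn3a, Kcnip1, Kcna5 and Cacnb2 fall from E12.5 to P0, and Kcnk1, Cacna2d3, Kcnip3 and Cacna1h rise.

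Several potassium channel genes with low RNA in progenitors lost accessibility as well. A Kcnip1 region (chr11:33738585-33748584) held 31.7 CPM at E10, 32.2 and 33.1 at E12.5, 20.9 and 21.3 at E14, 15.9 and 15.3 at E16.5, 10.9 and 11.0 at E18, 9.29 and 9.17 at P0 and 10.5 and 17.2 at P2 (slope -0.28 ± 0.05, edgeR adjusted p = 0.000604). From E12.5 to P0 each stage stood below the one before, without overlap, and P2 replicate 2 stood above P2 replicate 1. A Kcnab1 region (chr3:64908290-64918289) held 65.5 and 75.3 CPM at E12.5 and 18.1 and 18.6 at P0, and the Kcna5 region (chr6:126480573-126490572) 30.8 and 30.2 CPM and 16.4 and 14.4 (slope -0.19 ± 0.03, adjusted p = 0.000869). All 3 regions of Cacnb2 fell, with slopes of -0.29, -0.29 and -0.17. Kcnj13, the Kir7.1 channel of the pigment epithelium, had a region (chr1:89286304-89296303) that peaked at E14 with 27.4 and 32.1 CPM and held 6.42 and 6.73 at P0.

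From E12.5 to P0 the largest gain called was at Kcnn4, the intermediate-conductance calcium-activated channel, from 6.93 and 7.58 CPM to 25.52 and 28.0 CPM (1.88 ± 0.18, edgeR adjusted p = 1.51e-14). Over the windows within 1 kb of its start the difference was not called (-0.31 ± 0.51, edgeR adjusted p = 0.618). Over all stages, regions of 6 genes rose. Kcnk1 (chr8:128514002-128524001) held 22.6 CPM at E10, 29.4 and 27.8 at E12.5, 34.8 and 34.1 at E14, 37.3 and 38.7 at E16.5, 35.01 and 37.9 at E18, 45.5 and 50.8 at P0 and 64.7 and 54.2 at P2 (slope 0.20 ± 0.03, edgeR adjusted p = 5.96e-05). Its RNA in GFP+ cells had no such order, with the highest values at E18. Cacna2d3 (chr14:30530050-30540049) went from 35.5 and 33.2 CPM at E12.5 to 56.6 and 54.5 at P0 (slope 0.19 ± 0.03, adjusted p = 0.000137), while its RNA in GFP+ libraries stayed between 0.241 and 1.63 FPKM. Cacna1h, Kcnh2 and Cacnb3, which stood high in GFP+ RNA, rose with slopes of 0.13, 0.12 and 0.10.

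Kcnip3 had rising regions and a region without a call, read in unlike comparisons, and the difference between its starts was not tested. Its overlapping regions at chr2:127342128-127352127 and chr2:127342830-127352829 rose with slopes of 0.20 ± 0.04 and 0.20 ± 0.04 (edgeR, adjusted p = 0.00543 and 0.00569), and its region at chr2:127303235-127313234 was not called from E12.5 to P0 (-0.20 ± 0.14, adjusted p = 0.196). The window 0.9 kb upstream of the centre of the first held 1.91 and 1.36 CPM at E12.5, 2.52 and 2.41 at E14, 6.08 and 5.04 at E16.5, 8.28 and 8.97 at E18 and 11.1 and 10.3 at P0. Cacna2d4, whose RNA rose in GFP+ cells, gained at its start from E12.5 to P0 (1.29 ± 0.20, adjusted p = 2.49e-07), while its slope over all stages was not called (0.16 ± 0.06, adjusted p = 0.0888). Its window 0.1 kb upstream of the centre held 0.884 and 0.773 CPM at E12.5, 1.12 and 1.27 at E14, 1.96 and 1.90 at E18, 4.64 and 4.92 at P0 and 4.11 and 3.31 at P2. Kcnv2 had little signal at any stage, with 0.171 and 0.405 CPM at E12.5 and 1.06 and 1.34 at P0 in the window just upstream of its centre.

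**Figure D5:**
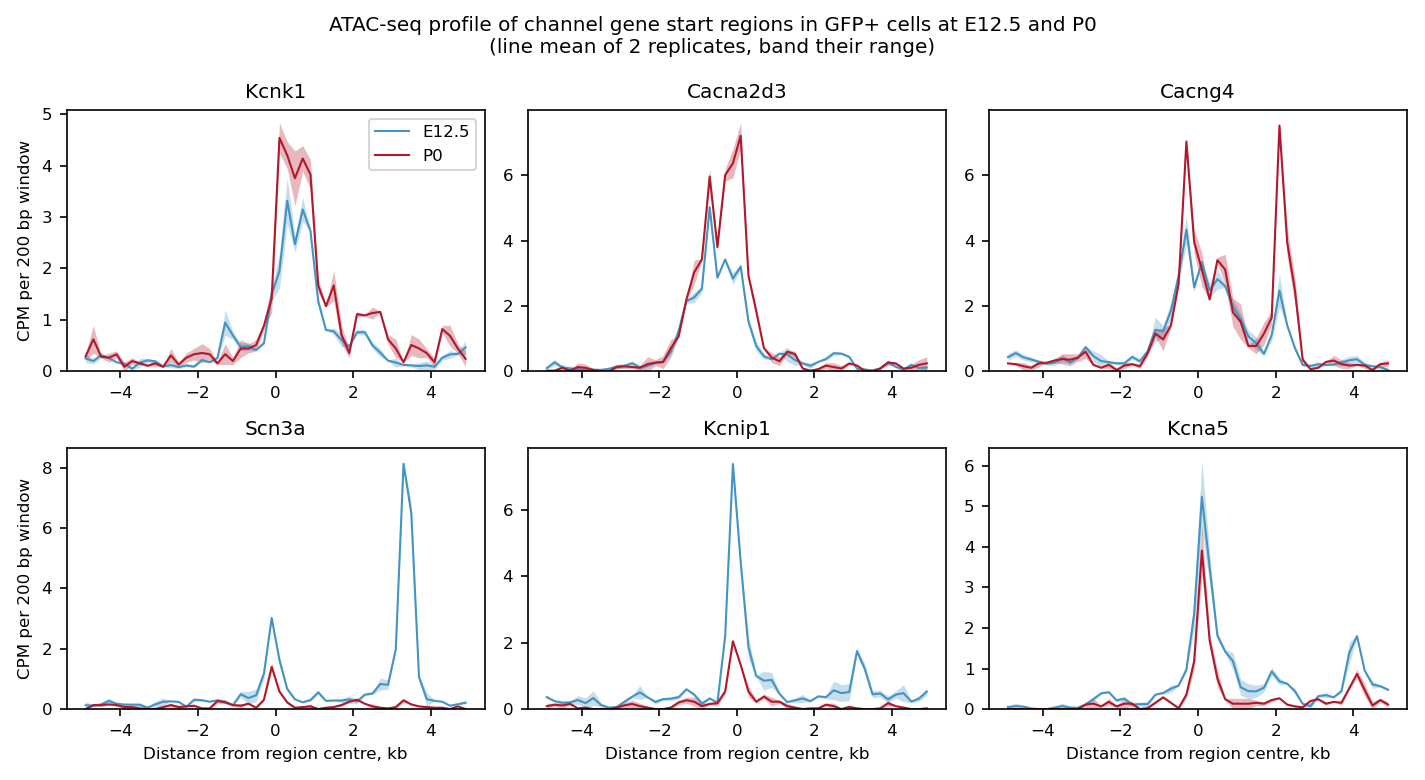
Mean ATAC-seq CPM per 200 bp window across the start regions of 6 channel genes at E12.5 and P0 in GFP+ cells, by distance from the region centre in kb, with bands for the range of 2 replicates. Scn3a loses a peak 3.3 kb downstream of the centre, Kcnip1 and Kcna5 lose height at the centre, Kcnk1 and Cacna2d3 gain there, and Cacng4 gains a peak 2.1 kb downstream.

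Accessibility was set beside the RNA calls. Of 27 start regions at the 20 genes called lower in GFP+ RNA at E18 or P2, 11 fell over stage (40.7%) and 2 rose. Of the 150 regions of the other 111 genes, 23 fell (15.3%) and 5 rose. Over all tested regions 4.89% fell and 5.24% rose. By gene, 8 of the 20 and 19 of the 111 had a falling region. From E12.5 to P0 the shares of regions that fell were 59.3% and 48.7%, beside 32% of all tested regions. The regions of 1 gene are not independent, and these shares are a description. Ranked by the mean CPM in the central 2 kb among all regions, the best region of each channel gene had a median percentile of 49.7 over the 131 genes (7.2 to 95.3). It was 52.6 for the 20 genes called lower, 67.9 for the 15 with a mean of 5 FPKM or more in GFP+ libraries and 39.7 for the 47 that did not pass the RNA filter.

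Promoter sequences of RefSeq (GRCm38.p6) were matched to 96 of the 131 genes, with 132 promoters in all. Each spans 250 bases before to 50 after a start. The letters searched on both strands were CAGCTG and CAGATG, E-boxes of the kind that proneural factors bind, GGGCGG, the GC box, TATAAA, the TATA box, GGATTA, a site of the photoreceptor factor CRX, TGACGTCA, the cyclic AMP response element, and a strict form of RE1, the element that REST binds. CAGCTG and TGACGTCA read the same on both strands, and no searched word holds another. CAGCTG was in 36 channel promoters (27.3%) against 16.3% of all 32851 promoters, CAGATG in 19.7% against 17.2%, GGGCGG in 44.7% against 35.7%, TATAAA in 5.3% against 13.6%, GGATTA in 4.55% against 7.06% and TGACGTCA in 0 against 1.79%. The RE1 word was in 0 channel promoters and in 12 of all promoters (0.0365%). Among 23 promoters of 14 genes called lower in GFP+ RNA, CAGCTG was in 8 (34.8%), CAGATG in 8, GGGCGG in 11 (47.8%) and GGATTA in 0. The median GC content was 58% in channel promoters and 52.7% in all. A match is a description of the letters in this window and not a site.

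The 250 bases before the start are printed for Kcnip1, the gene with the lowest log2 value called at P2, whose 3 starts differ in these letters. They are also printed for 2 of the 3 Kcnip3 starts (the third holds neither searched E-box and no GC box) and for a Kcnn1 start with 3 copies of CAGCTG. A Cacnb2 start follows, and another Cacnb2 start, at chr2:14604056-14604305, is not printed and holds CAGCTG and a GC box. The last is Kcnk1, which stood high in progenitors and has neither searched E-box and no GC box. Only CAGCTG and CAGATG were searched as E-boxes, and other E-box words in these windows are neither counted nor marked. The searched E-boxes and GC boxes are in capitals on either strand, 5′ to 3′ on the gene's strand. Positions are GRCm38.p6, a build other than the mm9 of the regions above.
Kcnip1 at chr11:33843687-33843936, minus strand: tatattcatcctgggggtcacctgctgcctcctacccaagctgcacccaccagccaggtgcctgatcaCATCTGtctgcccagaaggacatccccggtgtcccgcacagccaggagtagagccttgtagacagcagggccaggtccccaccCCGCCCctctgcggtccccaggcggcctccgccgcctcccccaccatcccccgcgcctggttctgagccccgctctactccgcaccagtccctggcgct
Kcnip1 at chr11:33993194-33993443, minus strand: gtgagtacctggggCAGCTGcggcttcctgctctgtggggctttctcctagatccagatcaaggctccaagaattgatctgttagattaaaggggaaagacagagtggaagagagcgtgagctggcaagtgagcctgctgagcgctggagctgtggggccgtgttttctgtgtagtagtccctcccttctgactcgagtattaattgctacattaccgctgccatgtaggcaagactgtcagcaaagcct
Kcnip1 at chr11:33680683-33680932, minus strand: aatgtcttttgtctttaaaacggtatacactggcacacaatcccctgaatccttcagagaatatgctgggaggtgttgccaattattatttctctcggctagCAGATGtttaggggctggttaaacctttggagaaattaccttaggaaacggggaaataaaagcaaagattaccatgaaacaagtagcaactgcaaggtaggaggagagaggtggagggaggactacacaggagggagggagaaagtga
Kcnip3 at chr2:127522095-127522344, minus strand: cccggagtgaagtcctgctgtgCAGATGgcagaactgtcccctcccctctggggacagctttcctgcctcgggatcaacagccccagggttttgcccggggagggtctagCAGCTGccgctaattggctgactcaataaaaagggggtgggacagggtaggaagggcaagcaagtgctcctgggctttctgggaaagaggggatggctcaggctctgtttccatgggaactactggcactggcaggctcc
Kcnip3 at chr2:127482500-127482749, minus strand: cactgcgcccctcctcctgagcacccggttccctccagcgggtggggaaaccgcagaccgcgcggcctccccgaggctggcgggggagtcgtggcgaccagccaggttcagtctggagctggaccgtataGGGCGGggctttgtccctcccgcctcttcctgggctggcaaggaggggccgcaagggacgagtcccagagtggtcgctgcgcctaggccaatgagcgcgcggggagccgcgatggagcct
Kcnn1 at chr8:70863259-70863508, minus strand: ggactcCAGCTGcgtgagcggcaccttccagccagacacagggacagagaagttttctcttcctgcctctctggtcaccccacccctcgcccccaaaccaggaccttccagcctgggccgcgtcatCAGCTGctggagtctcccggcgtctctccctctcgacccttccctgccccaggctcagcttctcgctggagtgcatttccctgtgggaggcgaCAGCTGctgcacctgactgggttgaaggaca
Cacnb2 at chr2:14823842-14824091, plus strand: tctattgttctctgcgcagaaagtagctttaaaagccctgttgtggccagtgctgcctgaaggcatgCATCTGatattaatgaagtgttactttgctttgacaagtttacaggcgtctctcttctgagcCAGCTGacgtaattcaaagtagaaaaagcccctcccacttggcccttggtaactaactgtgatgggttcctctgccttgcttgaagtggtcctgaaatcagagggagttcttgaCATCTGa
Kcnk1 at chr8:125994852-125995101, plus strand: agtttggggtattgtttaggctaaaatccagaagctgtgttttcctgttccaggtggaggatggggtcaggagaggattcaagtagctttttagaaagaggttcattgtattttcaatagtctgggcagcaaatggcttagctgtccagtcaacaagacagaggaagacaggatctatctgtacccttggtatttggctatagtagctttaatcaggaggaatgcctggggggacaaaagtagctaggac

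The 3 Kcnip1 windows each hold 1 searched E-box, as CATCTG with a GC box, as CAGCTG and as CAGATG. The upstream Kcnip3 window at chr2:127522095-127522344 holds CAGATG and CAGCTG, and the GC-rich one at chr2:127482500-127482749 holds a GC box and neither searched E-box. The printed Cacnb2 window holds CATCTG at 2 places around CAGCTG. The Kcnk1 window has a GC content near that of all promoters, at 49% over its 300 bases.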

How the data were processed

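The channel genes and the marker and partner lists were chosen with earlier results of these data known. RNA values are FPKM deposited by the authors in 1 table; no label gives the unit, which was read from non-integer values with library sums of 383872 to 504845, and sequencing depth is unknown. ATAC-seq values are read counts deposited by the authors, in 200 bp windows around transcript starts and over exons. The submitters' processing notes list Bowtie2, HISAT2, Picard 2.10.7, SAMtools 1.5, featureCounts 1.5.3 and bedtools 2.26.0, and 2 builds (mm9, mm10), with no roles. The windows are on mm9, judged by chromosome ends.

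RNA was tested with limma 3.58.1 (R 4.3.3, trend) on log2(FPKM + 1) for 14276 of 28446 genes that reached 1 FPKM in 2 or more libraries, with 1 mean for each of 6 groups and 6 residual degrees of freedom. Fold changes on this scale understate those of low genes. Windows were summed to 28329 regions of 50 windows; 7998 of 1424448 windows outside such runs were left out. Counts were tested with edgeR 4.0.16 (quasi-likelihood, TMM) after its low-count filter, with a mean per stage (6 residual degrees of freedom) or stage rank as a number (11). P-values were adjusted over all features by Benjamini-Hochberg at 0.05. Alternatives were another pseudocount, no filter, groups fitted alone, a replicate block, other scalings, DESeq2 1.42.0, central windows and each library left out; leaving out E14 or E10 libraries outside the groups compared was added after the data were seen. The fits were tested on simulated data. Genes named in the text are the called members with at least 1 FPKM in the higher group (up to 12 with the largest change in each direction), the 2 highest members of each family in each sort, a fixed list of 45 channel genes, and the 6 regions with the largest called change in each direction; other genes were named after their values were seen. A few members and partner genes are counted but not named or drawn, and 1 gene of the symbol pattern is not reported here. All table columns of samples were mapped by name.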

Additional observations from a re-analysis of the deposited data

How the results depend on the processing

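The calls depend on the shared estimate of the spread more than their direction does. Percentages in parentheses are the shares of all features called in the same fits. The E18 sort count of 17 (3.61%) was 6 (1.002%) with a pseudocount of 0.1, 9 (1.88%) with a replicate block, 77 (55.7%) with the groups fitted alone, 68 (42.0%) without E14 GFP- replicate 2, 75 (50.4%) without all 4 E14 libraries and 1 to 1 (0.161% to 0.238%) with a compared library left out. The P2 sort count of 12 (1.49%) was 52 (19.2%) with the groups alone, 50 (23.4%) without E14 GFP- replicate 2, 63 (32.9%) without the E14 libraries and 3 to 8 (0.21% to 1.14%) with a library left out. The E14 count of 0 ranged from 0 to 64 (0% to 48.1%) with a library left out. The GFP+ count of 1 (P2 against E14) was 0 with the other pseudocount, no filter, the groups alone, the replicate block or quantile scaling, 13 (12.7%) without E14 GFP- replicate 2 and 0 to 3 (0.105% to 3.29%) with a library left out. The GFP- count of 6 (P2 against E18, 11.1%) was 45 (31.2%) with the groups alone, 10 (14.4%) with quantile scaling, 10 (11.9%) when rescaled without histone, mitochondrial and abundant noncoding genes, 41 (32.0%) without E14 GFP- replicate 2, 50 (42.0%) without the E14 libraries and 3 to 7 (3.43% to 7.20%) with a library left out. The interaction count of 0 was 1 (0.455%) with no filter, 14 (2.94%) with the groups alone, 10 (1.11%) without E14 GFP- replicate 2 and 14 (2.94%) without the E14 libraries. The count of falling or rising regions, 41 (10.1%), was 90 (44.0%) without the E10 library and P2 replicate 2 together and 20 to 118 (4.84% to 61.1%) with a library left out. Over exons the P0 against E12.5 count of 65 (42.0%) ranged from 36 to 52 (14.9% to 33.0%) with a compared library left out and was 82 (59.3%) without the E10 library and P2 replicate 1, and the slope count of 17 (6.28%) was 27 (12.2%) with the DESeq2 Wald test, 53 (30.3%) without the E10 library and P2 replicate 2 together and 6 to 76 (1.34% to 42.3%) with a library left out. The start region count of 116 (61.9%) was 87 to 97 (39.2% to 51.9%) with a library left out. In windows within 1 kb of the centre the values of Kcnn4 (-0.31 ± 0.51, edgeR adjusted p = 0.618) and Kcnj16 (-0.42 ± 0.63, adjusted p = 0.583) lay below 0 without a call. Where no alternative's own construction shows it, the cause was not tested.

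The labels do not say that replicate numbers pair samples. The correlation of the deviations of same-numbered samples was 0.362 at E14, 0.111 at E18 and -0.558 at P2. With the replicate block the other counts were 10 at P2, 6 in GFP- cells, 0 at E14 and for the interaction, 115 and 34 regions and 67 and 13 genes over exons. Of the values for single genes and regions under the alternatives, 3777 kept their side of the threshold, 273 gained a call, 236 lost one and 2 reversed. Depth is unknown for RNA.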
